A study of Mus musculus with 12 samples.

Results

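The 8 genes described here encode the receptor side of GDNF signalling, its ligand and the Pea3 group of ETS transcription factors: Ret, Gfra1, Gfra2, Gfra3, Gdnf, Etv1, Etv4 and Etv5. They were taken by symbol from the deposited table of estimated counts, where all 8 of them were found among 30740 gene symbols, over all 12 libraries. RNA had been sequenced from ventral spinal cord cells of CB6F1/J mouse embryos at E12.5, sorted on Hb9:GFP, a reporter driven by the promoter of Mnx1 (Hb9), which labels spinal motor neurons. The GFP-positive groups were 5 libraries from control embryos and 5 from Arhgap35 knockout embryos, and the GFP-negative groups were 1 library of each genotype. Controls are labelled wild type, but the protocol also allows littermates heterozygous for the knockout, which it names by the protein, p190. The protocol says that tissue was pulled before dissociation, which may mean pooled, and gives no number of embryos per library. The labels do not tie replicates to litters, and the p-values below therefore measure the spread between these libraries, which may be technical in part.

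GDNF is a secreted growth factor made by limb muscle precursors and other mesenchyme. It binds a GFRα co-receptor on the cell surface, and the pair activates the receptor tyrosine kinase RET. Spinal motor neurons use this route for survival and for steering axons into the dorsal limb. When their axons meet GDNF in the limb, some limb-innervating motor neurons switch on Etv4 (Pea3), a transcription factor that sets the position and dendrite shape of their motor pool. Etv1 (Er81) marks other motor pools and proprioceptive sensory neurons, and Etv5 (Erm) is a common target of FGF signalling in progenitors and glia.

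Etv1, Etv4 and Etv5 are close relatives, and the way their counts separate depends on how much sequence they share. The 90-base stretch most alike in their coding sequences lies in the part that encodes the DNA-binding ETS domain. It is shown here from the GENCODE M21 transcripts (GRCm38), 5′ to 3′, with capitals at the 16 positions where the 3 genes are not all the same.
Etv1: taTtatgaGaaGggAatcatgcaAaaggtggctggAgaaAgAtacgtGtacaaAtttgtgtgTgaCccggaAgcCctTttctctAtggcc
Etv4: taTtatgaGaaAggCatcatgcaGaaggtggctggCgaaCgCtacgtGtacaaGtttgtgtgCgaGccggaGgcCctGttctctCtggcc
Etv5: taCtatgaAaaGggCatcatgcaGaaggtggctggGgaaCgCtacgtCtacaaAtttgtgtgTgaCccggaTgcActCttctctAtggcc
The stretch covers coding bases 1186 to 1275 of Etv1, 1210 to 1299 of Etv4 and 1339 to 1428 of Etv5, counted from the start codon. Even in full coding sequences, the longest identical run was 18 bases between Etv1 and Etv4, and 23 bases between Etv5 and either of them. Among the co-receptors it was 28 bases between Gfra1 and Gfra2 and at most 11 between Gfra3 and the other two. No 31-base sequence was shared between any of the 8 genes, and the reads were 50 bases long. Outside the set, 30.3% of the distinct 31-base sequences of Etv5 also occur in Gm4798, which has no value here. Etv1 shared 10% of its 31-base sequences with other genes, nearly all of them with Gm5454, and Gfra1 shared 7.05%, all with the antisense gene Gm16277. The library kit does not mark strand, so reads of Gfra1 and Gm16277 cannot be told apart where they overlap, and Gm16277 was given at most 3.92 counts in any library. Levels of Etv5 are the ones that such copies could touch most, and Ret, Gfra3, Gdnf and Etv4 shared no 31-base sequence with any other gene.

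On GRCm38, the GENCODE M21 gene models place Ret at chr6:118151745-118197718, Gfra1 at chr19:58235604-58455909, Gfra2 at chr14:70890120-70979838 and Gdnf at chr15:7810846-7837575. Those of Etv1, Etv4 and Etv5 lie at chr12:38779380-38870484, chr11:101769742-101785371 and chr16:22381309-22439719. Ret, Gfra1, Etv4 and Etv5 are on the minus strand and the other 3 on the plus strand. Exons of Gfra1 share 416 bases (7.6%) with those of Gm16277, which runs on the opposite strand.

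Library totals ran from 23.7 to 33.8 M estimated counts. Levels are given in CPM, a counts-per-million value scaled between libraries, which serves to compare libraries within a gene, and in the deposited TPM, which is per transcript length and serves to compare genes. Of 9 motor neuron markers, 8 were higher in GFP-positive cells, and the summed level of the 9 was 1481 to 1943 CPM in GFP-positive and 60.4 and 56.0 CPM in GFP-negative libraries. The labels call all samples motor neurons, and the GFP-negative libraries went against that label. The targeted gene, Arhgap35, was below every control GFP-positive library (135 to 202 CPM) in all 5 knockout ones (88.3 to 105.6 CPM), and its older symbol Grlf1 likewise (0 to 8.32 against 23.7 to 72.1 CPM). The labels do not say which stretch of the gene was deleted, and counts from the remaining stretches do not check the genotype.

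Per length, Ret, Etv4 and Gfra1 were the most abundant of the 8 genes in GFP-positive cells. Their median TPM over 10 libraries was 132 (range 111 to 149), 129.8 (67.3 to 154) and 123 (111 to 137), so these neighbours overlapped. Gfra2 came next, at a median of 25.4 TPM (23.2 to 29.2), apart from the genes above and below it. Gfra3 at 12.9 TPM (8.95 to 16.2) and Etv1 at 11.8 TPM (8.80 to 16.5) overlapped each other. Etv5 had a median of 1.61 TPM (0.909 to 3.71) and Gdnf one of 0.160 TPM (0.0829 to 0.271). In GFP-negative cells the order was another one. There Gfra1 led at 104.0 TPM in the control and 92.2 TPM in the knockout library, and Gfra2, Etv5 and Etv1 lay between 6.66 and 9.04 TPM. Ret followed at 5.30 and 5.15 TPM, Etv4 at 1.72 and 1.47 TPM, Gfra3 at 0.764 and 0.817 TPM, and Gdnf at 0.0442 and 0.0710 TPM.

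**Figure D1:**
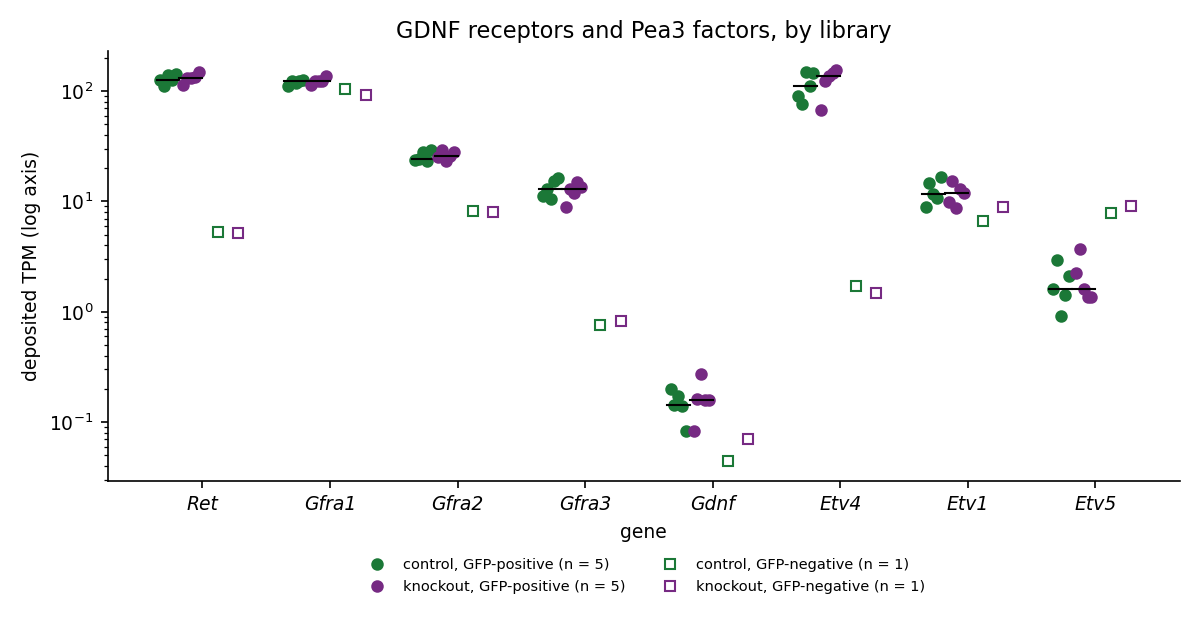
Deposited TPM (log axis) of the 8 genes in each of 12 libraries, with filled circles for GFP-positive and open squares for GFP-negative libraries, control in green and knockout in purple. Black bars are medians of 5 libraries. Ret and Etv4 stand far above their GFP-negative values, Gfra1 only a little, and Etv5 lies below them.

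The comparison of GFP-positive with GFP-negative cells asks which of the 8 genes were more abundant in motor neurons than in the other cells of the ventral cord. Etv4, Ret and Gfra3 were many-fold higher in motor neurons, Gfra2 moderately, and Gfra1 and Etv1 only slightly. Etv5 went the other way. All 8 genes passed edgeR's quasi-likelihood test (7 higher, 1 lower), but so did 61.9% of the 19763 genes tested (30.1% higher and 31.8% lower). A share of 8 in 8 therefore has to be read against a high background. Gdnf met the filter on low counts only through GFP-positive knockout replicate 3, so its place among the 7 is no support. The median log2 fold change was 1.55 over the 8 genes and 0.018 over all genes tested. In bulk RNA, fewer cells that express a gene and less of its RNA per cell cannot be told apart. The GFP-negative arm has 2 libraries, and each is the only one of its genotype. Both carry replicate number 1. With the replicate number as a block, 5 of the 8 genes were called, against 55.6% of all genes tested.

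Ret, the signalling receptor, stood at 388, 342, 438, 389 and 446 CPM in control replicates 1 to 5 and at 346, 411, 408, 409 and 462 CPM in knockout replicates 1 to 5. In GFP-negative cells of control and knockout embryos it stood at 16.1 and 16.5 CPM. Every GFP-positive library was thus far above both GFP-negative ones, and the lowest of the 10 were control replicate 2 and knockout replicate 1. The log2 fold change was 4.63 (standard error 0.142, 95% confidence interval 4.32 to 4.94), a 24.8-fold difference (edgeR adjusted p = 1.37e-10). The ratio was 24.9 in control and 24.7 in knockout libraries.

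Gfra1, the preferred co-receptor of GDNF, was nearly as abundant outside motor neurons as in them. Its level was 177, 195, 194, 197 and 198 CPM in control replicates 1 to 5 and 177, 193, 189, 194 and 211 CPM in knockout replicates 1 to 5, against 170.3 and 159.6 CPM in the GFP-negative libraries of control and knockout embryos. The ranges did not overlap, and 29.2% of all genes tested had their 10 GFP-positive libraries above both GFP-negative ones. The difference was small, with a log2 fold change of 0.22 (standard error 0.0583, 95% confidence interval 0.097 to 0.35, edgeR adjusted p = 0.00427). Blocking on the replicate number gave 0.10, which did not pass (edgeR adjusted p = 0.0724). It did not pass either without the knockout GFP-negative library (0.17, adjusted p = 0.109) or in control libraries alone (0.19, adjusted p = 0.0816). The ratio of Ret to Gfra1 TPM was 0.893 to 1.16 in the GFP-positive libraries and 0.0509 and 0.0559 in the GFP-negative ones.

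Gfra2, the co-receptor preferred by neurturin, reached 30.5, 33.4, 34.6, 30.1 and 37.5 CPM in control replicates 1 to 5 and 31.3, 39.6, 28.7, 30.6 and 38.1 CPM in knockout replicates 1 to 5. The GFP-negative libraries had 12.4 (control) and 9.95 CPM (knockout), below all of these. Its log2 fold change was 1.58 (standard error 0.141, 95% confidence interval 1.28 to 1.89, edgeR adjusted p = 4.68e-07). Gfra3, the co-receptor of artemin, best known from sensory and sympathetic neurons, was less abundant, with a 15.8-fold difference between the sorts. It stood at 9.64, 11.2, 9.36, 13.3 and 14.2 CPM in control replicates 1 to 5 and at 7.72, 11.4, 10.4, 12.9 and 11.8 CPM in knockout replicates 1 to 5, against 0.678 and 0.731 CPM in the GFP-negative libraries of control and knockout embryos, which held 20 counts each. The log2 fold change was 3.98 (standard error 0.265, 95% confidence interval 3.41 to 4.56, edgeR adjusted p = 2.57e-08). Of 6 sensory neuron markers tested, 1 was higher and 2 were lower in GFP-positive cells. Their summed level was 18.2 to 39.1 CPM there and 151 and 136 CPM in the GFP-negative libraries. The part of sensory neurons in the Gfra3 levels was not tested.

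Gdnf, the ligand, was close to the limit of detection in both sorts. Its estimated counts were 11, 5, 7.37, 5 and 3 in control replicates 1 to 5, 4, 6, 11, 9 and 8 in knockout replicates 1 to 5, and 2 and 3 in the GFP-negative libraries of control and knockout embryos. Summed over libraries, that is 0.265 CPM (95% exact Poisson interval 0.205 to 0.333, counting error only) in GFP-positive and 0.0879 CPM (0.0285 to 0.205) in GFP-negative cells. The ratio of the summed levels was 2.99, with a counting interval of 1.22 to 9.51. Gdnf met the filter on low counts only through GFP-positive knockout replicate 3 (11 counts, 0.449 CPM). A call for Gdnf is therefore no independent support for a difference. The fit called it (log2 fold change 1.52, edgeR adjusted p = 0.0295), but not with the replicate block (1.57, adjusted p = 0.0955), with DESeq2 (1.56, adjusted p = 0.0814) or without the control (1.30, adjusted p = 0.185) or knockout (1.78, adjusted p = 0.102) GFP-negative library. In knockout libraries alone (1.31, edgeR adjusted p = 0.222) and with limma on unfiltered log2(TPM + 1) (0.13, adjusted p = 0.120) it was not called either. Mesenchyme markers, of a tissue known to make GDNF, were summed at 3.13 to 12.8 CPM in GFP-positive and at 21.1 and 21.8 CPM in GFP-negative libraries. Of these 7 markers, 5 were tested and 4 were lower in GFP-positive cells. The part of mesenchyme in the Gdnf counts was not tested.

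Etv4 had the widest difference of the 8 genes between the sorts. It stood at 64.1, 51.5, 105, 77.4 and 102 CPM in control replicates 1 to 5 and at 46.6, 88.5, 95.0, 100.3 and 106 CPM in knockout replicates 1 to 5, while the GFP-negative libraries of control and knockout embryos had 0.949 and 1.25 CPM. The groups were far apart, although the GFP-positive libraries themselves spread over 2.26-fold. The log2 fold change was 6.25 (standard error 0.555, 95% confidence interval 5.01 to 7.49), or 76.2-fold (edgeR adjusted p = 3.37e-06). In GFP-negative cells Etv4 kept 1.31% of its GFP-positive level and Ret kept 4.03%. The motor neuron markers that were higher in GFP-positive cells spread widely. They ran from 0.187% for Mnx1, whose promoter drives the reporter, to 13.9% for Lhx3. Between these lay Isl2 (0.282%), Prph (0.714%), Slc5a7 (0.860%) and Isl1 (8.47%). Chat (1.31%) and Slc18a3 (1.68%), the genes for making and packing acetylcholine, lay there too.

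Etv1 differed little. Its level was 13.3, 19.2, 17.5, 14.6 and 18.4 CPM in control replicates 1 to 5 and 13.4, 20.5, 13.8, 16.0 and 17.0 CPM in knockout replicates 1 to 5, and 10.6 and 11.7 CPM in the GFP-negative libraries of control and knockout embryos. In both genotypes replicate 1 was the lowest and replicate 2 the highest, and all 10 lay above both GFP-negative libraries. The log2 fold change of 0.55 (standard error 0.165, 95% confidence interval 0.19 to 0.90, edgeR adjusted p = 0.0113) was 0.25 with the replicate block (edgeR adjusted p = 0.0911). It also missed the threshold without the control GFP-negative library (0.45, edgeR adjusted p = 0.138) and in knockout libraries alone (0.46, edgeR adjusted p = 0.135), as well as with limma on unfiltered log2(TPM + 1) (0.57, adjusted p = 0.0543).

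Etv5 was the one gene of the set that was lower in motor neurons. It stood at 2.68, 2.25, 1.55, 1.55 and 2.20 CPM in control replicates 1 to 5, at 2.44, 4.33, 2.61, 1.48 and 1.37 CPM in knockout replicates 1 to 5, and at 13.4 and 15.7 CPM in the GFP-negative libraries of control and knockout embryos. Even the highest GFP-positive library, knockout replicate 2, was well below both GFP-negative ones, an order seen in 31.6% of all genes tested. The log2 fold change was -2.69 (standard error 0.284, 95% confidence interval -3.31 to -2.08, edgeR adjusted p = 3.04e-06), or -1.73 on the log2(TPM + 1) scale, which understates changes of low genes. Progenitor markers moved with it: 7 of 7 were lower in GFP-positive cells, with a summed level of 405 to 513 CPM there and 1748 and 1919 CPM in the GFP-negative libraries. Of 6 glia and neural crest markers 2 were lower and 0 higher, with sums of 25.9 to 58.9 CPM in GFP-positive libraries and 425 and 500.5 CPM in GFP-negative ones. The part of these cells in the Etv5 difference was not tested.

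Set against each other, the Pea3 factors had opposite make-ups in the sorts. In GFP-positive libraries Etv4 took 81.1 to 92.9% of the summed TPM of the 3 genes, Etv1 5.99 to 15.7% and Etv5 0.566 to 3.16%. In GFP-negative libraries Etv4 took 10.6% (control) and 7.62% (knockout), while Etv5 took 48.2 and 46.7% and Etv1 41.2 and 45.6%. Among the 3 co-receptors of the set, Gfra1 took 73.5 to 77.8% of the summed TPM in GFP-positive and 92.1 and 91.2% in the GFP-negative libraries of control and knockout embryos. Gfra4, another co-receptor gene, was not counted in these shares. It had 6.89 to 12.7 TPM in GFP-positive libraries and 5.60 (control) and 5.01 TPM (knockout) in GFP-negative ones. Gfra1 was thus the main co-receptor transcript in both sorts, and Etv4 the main Pea3 transcript in the GFP-positive one.

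**Figure D2:**
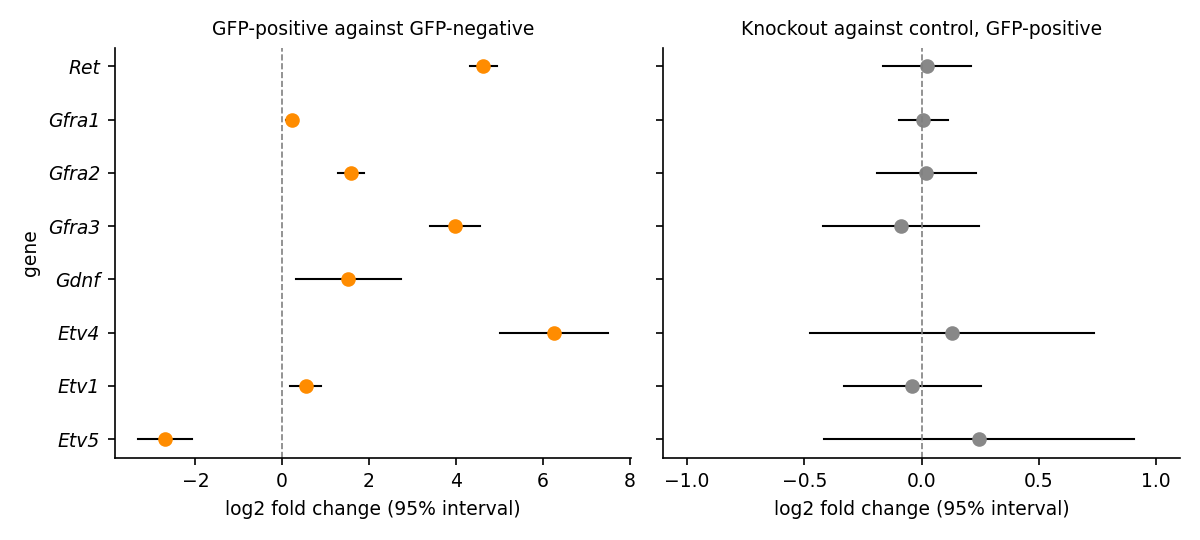
Log2 fold changes of the 8 genes with 95% confidence intervals from edgeR, for GFP-positive against GFP-negative cells (left) and knockout against control GFP-positive cells (right, on a narrower axis). Orange points have an adjusted p under 0.05 and grey points do not. The left panel runs from -2.69 for Etv5 to 6.25 for Etv4, while all intervals on the right include 0, and Gdnf was not tested there.

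Within the GFP-positive sort, the 5 knockout libraries were set against the 5 controls to see whether loss of Arhgap35 altered these genes. No difference was detected for any of them. Of the 8 genes, 7 had enough counts to be tested, and edgeR called 0 of them, with 0 at an unadjusted p under 0.05. Over all 17487 genes tested edgeR called 0.0343%, and 2.14% had an unadjusted p under 0.05, so a count of 0 among 7 says little by itself. DESeq2 and limma on log2 TPM called 0 of the 8 genes too. Control and knockout ranges overlapped for all 8, and groups lay apart in 0.234% (higher) and 0.297% (lower) of the genes tested. The limits on a change are therefore read from the intervals, which below come from the fit without a replicate block. With the block the intervals were narrower and all included 0. They were -0.13 to 0.17 for Ret, -0.054 to 0.067 for Gfra1, -0.13 to 0.16 for Gfra2 and -0.27 to 0.080 for Gfra3. For Etv1 the blocked interval was -0.20 to 0.11, for Etv4 -0.43 to 0.68 and for Etv5 -0.34 to 0.70.

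The receptors were bounded closely. The mean level of Ret was 401 ± 42.4 CPM in controls and 407 ± 41.2 CPM in knockouts (SD, n = 5 each), and the log2 fold change was 0.024 (95% confidence interval -0.16 to 0.21). Gfra1 had 192 ± 8.86 and 193 ± 12.2 CPM (SD, n = 5 each), with 0.0075 and an interval of -0.098 to 0.11. For Gfra2 the levels were 33.2 ± 3.06 and 33.7 ± 4.89 CPM (SD, n = 5 each), with 0.020 and an interval of -0.19 to 0.23. Gfra3 stood at 11.6 ± 2.18 and 10.8 ± 1.94 CPM (SD, n = 5 each), with -0.089 and an interval of -0.42 to 0.24. The intervals of Ret, Gfra1 and Gfra2 thus stayed within a log2 change of 0.24 in either direction, and edgeR's adjusted p was 0.9999 for each receptor. Gdnf was too low for the test. Summed over 5 libraries, it reached 0.251 CPM in controls (95% exact Poisson interval 0.168 to 0.352) and 0.277 CPM in knockouts (0.196 to 0.381).

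Etv4 and Etv5 were bounded less closely than the receptors. The mean level of Etv4 was 79.9 ± 23.2 CPM in controls and 87.2 ± 23.5 CPM in knockouts (SD, n = 5 each), and its log2 fold change of 0.13 had an interval of -0.48 to 0.73. Etv1 had 16.6 ± 2.55 and 16.1 ± 2.87 CPM (SD, n = 5 each), with -0.039 and an interval of -0.33 to 0.25. Etv5 had 2.05 ± 0.491 and 2.45 ± 1.19 CPM (SD, n = 5 each), with 0.24 and an interval of -0.42 to 0.90. For each of the 3, edgeR's adjusted p was 0.9999. The higher mean of Etv5 in the knockout rested on replicate 2, and without that library its log2 fold change was -0.063. The same library was the highest of the 10 for summed endothelial (12.3 CPM, others 1.30 to 5.80), erythroid (46.4 CPM, others 3.95 to 26.3) and mesenchyme markers (12.8 CPM, others 3.13 to 7.54). The part of these cells in its Etv5 level was not tested.

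Whether the genotype difference itself differed between GFP-negative and GFP-positive cells was tested with an interaction term. None of the 8 genes passed (edgeR, 0 called and 0 at an unadjusted p under 0.05, against 0.0253% and 1.78% of 19763 genes). The estimates, taken as the genotype difference outside motor neurons less that inside them, ran from -0.34 for Gfra2 to 0.47 for Gdnf. With 1 GFP-negative library per genotype they were loose: the interval was -0.48 to 0.52 for Ret and -2.62 to 3.13 for Etv4.

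Etv4 varied between GFP-positive libraries more than the receptors did. Its standard deviation over the 10 libraries was 0.44 on the log2 CPM scale, above that of 99.3% of the 2250 tested genes whose average log2 CPM lay within 0.5 of its own. Ret had a standard deviation of 0.14 (above 93.6% of 361 genes of similar level) and Gfra1 one of 0.076 (above 60.3% of 1135). Control replicate 2 and knockout replicate 1 were the lowest for Etv4 and also for Ret. The summed motor neuron markers had the same extremes as Etv4: they were lowest in control replicate 2 (1481 CPM) and knockout replicate 1 (1552 CPM), and highest in control replicate 3 (1943 CPM) and knockout replicate 5 (1917 CPM). Summed glia and neural crest markers were high in control replicates 1 and 2 (54.3 and 58.9 CPM) and knockout replicates 1 and 2 (56.7 and 50.9 CPM), against 25.9 to 37.9 CPM in the other GFP-positive libraries. Summed sensory neuron markers were highest in control replicate 1 (39.1 CPM) and knockout replicate 1 (37.9 CPM). The part of these cells in the spread of Etv4 and Ret was not tested. Gfra1 was lowest in replicate 1 and highest in replicate 5 in both genotypes, and Ret was highest in replicate 5 in both. Estimated counts of Etv4 were 1183 to 3379 per GFP-positive library.

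The genes whose levels followed each of the 8 most closely over the 12 libraries were found by the root mean square difference between log2 CPM profiles, each centred on its own mean, among 11987 other genes (11988 for Gdnf). For Etv4 they were Pappa, which encodes a secreted protease (difference 0.30), and Aldh1a2 (0.33), the retinoic acid synthesis enzyme that marks the limb-innervating lateral motor column. Aldh1a2 stood at 217, 175, 332, 233 and 274 CPM in control replicates 1 to 5 and at 235, 284, 281, 266 and 304 CPM in knockout replicates 1 to 5, against 2.27 and 2.41 CPM in the GFP-negative libraries of control and knockout embryos. It was chosen for its likeness to Etv4, so its lowest and highest libraries being those of Etv4 in both genotypes is part of that choice, and the summed motor neuron markers had the same ones. Pappa was lowest in replicate 1 of both genotypes, at 32.5 CPM (control) and 38.5 CPM (knockout).

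For Ret the closest profiles were those of S100a10 (difference 0.092) and Fxyd7 (0.092), which encode an annexin-binding protein and a modulator of the sodium pump. Gfra1 was followed by Mier2 (0.038) and Foxj3 (0.041), Gfra2 by Tmem179 (0.084) and Smim17 (0.094), and Gfra3 by Cd59a (0.15) and Ache, which encodes acetylcholinesterase (0.18). Etv1 was followed by the nuclear receptor gene Rora (0.0997) and Mov10 (0.12), Etv5 by Plce1 (0.26) and Bcar3 (0.27), and Gdnf by Peak1 (0.26) and Tbc1d2 (0.27). With 2 to 11 counts per library the profile of Gdnf is loose, and nothing is read from its neighbours. The 12 profiles are dominated by the difference between the sorts, and the libraries share their preparation and scaling.

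**Figure D3:**
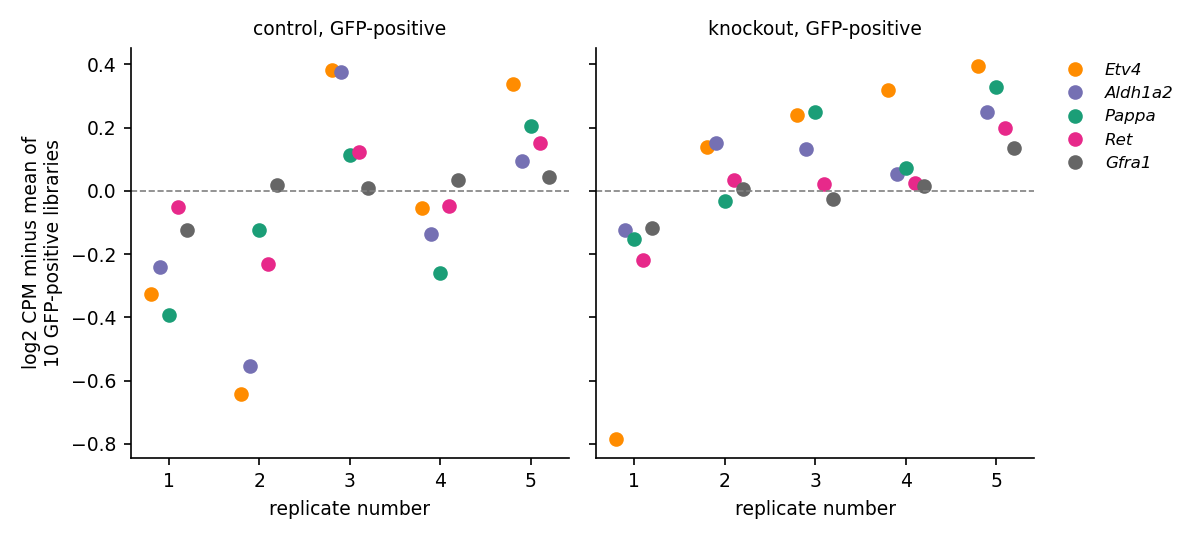
Log2 CPM of Etv4, Aldh1a2, Pappa, Ret and Gfra1 in each GFP-positive library, as the difference from the gene's mean over the 10 libraries, by replicate number in control (left) and knockout (right). Etv4 spreads most, with control replicate 2 and knockout replicate 1 at the bottom, and Gfra1 stays closest to 0.

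Other genes of the pathway were counted from fixed lists, with the 8 genes left out. Their counts stand beside 30.1% higher, 31.8% lower and 61.9% called in either direction over all genes tested between the sorts, and nothing particular to a list is read from them. In the list of GDNF family ligands and receptors 8 others were sought, and 6 were tested between the sorts: 3 were higher, 2 lower and 1 was not called (median log2 fold change 0.70). Sdc3, a syndecan that binds GDNF, rose from 227 CPM (mean of 2 GFP-negative libraries) to 537 ± 29.7 CPM (SD, n = 10; log2 fold change 1.24, edgeR adjusted p = 2.60e-09). Ncam1, an adhesion molecule that can serve as a GDNF receptor without RET, rose from 588 to 915 ± 39.9 CPM (SD, n = 10; 0.64, edgeR adjusted p = 1.18e-07), and the fourth co-receptor gene, Gfra4, from 4.04 to 7.48 ± 1.22 CPM (SD, n = 10; 0.89, edgeR adjusted p = 0.00079). Lower in GFP-positive cells were Gas1, a membrane protein related to the co-receptors (-2.58, edgeR adjusted p = 1.02e-08), and the ligand gene Pspn, at 0.188 against 0.514 CPM (-1.45, edgeR adjusted p = 0.00623). Pspn was too low to be tested between the genotypes. It met the filter between the sorts through the GFP-negative one, where it was high, so its place among the 2 lower genes is no independent support. No ligand gene of the family was above 0.6 CPM on average in either sort.

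Of 23 RET adaptors and effectors, all tested, 12 were higher in GFP-positive cells, 6 lower and 5 not called (median log2 fold change 0.42), and over all genes tested 61.9% were called. The adaptor gene Shc2 rose from 45.0 to 179 ± 9.24 CPM (SD, n = 10; 2.00, edgeR adjusted p = 7.03e-11), with smaller differences for Frs3 (0.91) and Gab2 (0.96), which encode docking proteins. Grb10, which encodes an adaptor known as a brake on receptor kinases, fell from 296 to 56.0 ± 7.62 CPM (SD, n = 10; -2.40, edgeR adjusted p = 7.06e-09). The phosphatase gene Ptpn11 (-0.71) and the phospholipase gene Plcg1 (-0.66) fell as well. MAPK feedback genes, most of which dampen the pathway downstream of RET and FGF receptors, were divided. Of these 10 genes 2 were higher, 3 lower and 5 not called (median 0.019, beside 0.018 for all genes). Spry4 (2.38) and Spred3 (0.96) rose, and Spred1 (-1.20), Il17rd (-1.49) and Spry2 (-0.57) fell.

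Of 11 motor pool genes that lie beside or downstream of the Pea3 factors, 10 were higher in GFP-positive cells and 1, Nkx6-2, was not called (median 2.17), beside 30.1% higher over all genes tested. Met, the HGF receptor gene, rose from 13.7 to 83.6 ± 4.08 CPM (SD, n = 10; 2.60, edgeR adjusted p = 1.67e-11). The semaphorin gene Sema7a (1.23) and the homeobox gene Nkx6-1 (2.22) rose too. These genes were listed for their place in motor neurons, so their direction here is no independent evidence. Of 21 other ETS family genes listed, 17 were tested, and 10 were lower, 2 higher and 5 not called (median -0.60), beside 31.8% lower and 30.1% higher over all genes tested. Gabpa (-1.17), Erf (-1.60) and Elf2 (-0.74) were the lower ones with the smallest p. Higher were Ets2 (0.23) and Elf3 (2.25). Elf3 averaged 0.360 CPM in GFP-positive and 0.0731 CPM in GFP-negative cells. It met the filter on low counts through the sort where it was high, so its call is no independent support. Among the 10 lower genes, Fli1 (-1.70) was too low to be tested between the genotypes and was higher in GFP-negative cells. The call of Fli1 is therefore no independent support either.

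**Figure D4:**
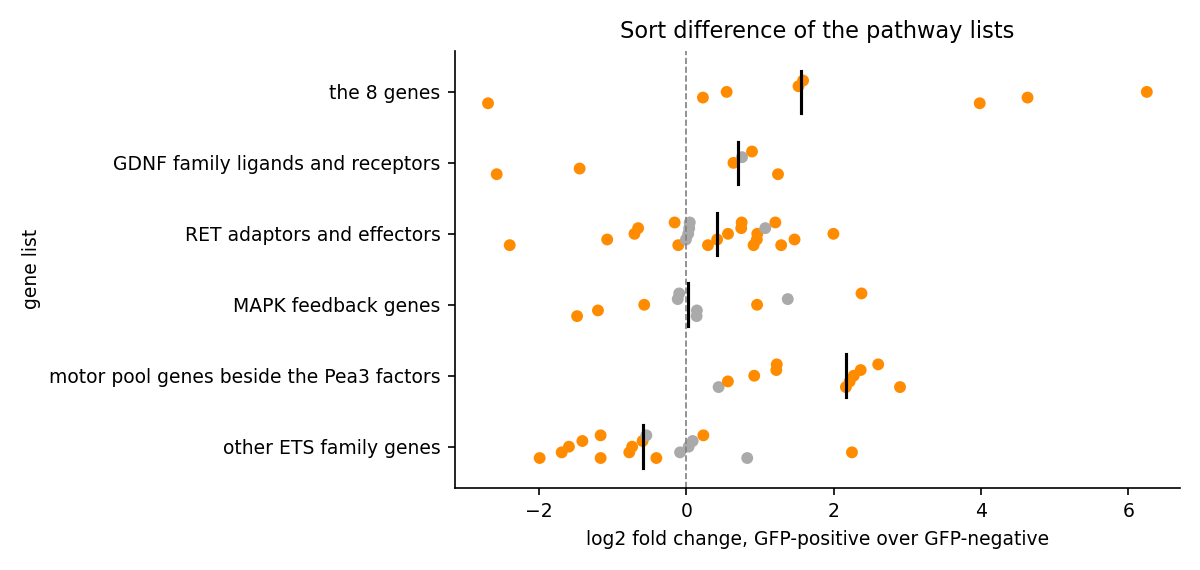
Log2 fold change of GFP-positive over GFP-negative cells for the 8 genes and for the other genes of each fixed list, 1 point per gene, with orange for an adjusted p under 0.05, grey otherwise, and a black bar at the list's median. The motor pool genes lie to the right of 0, with a median of 2.17, and most other ETS genes lie to the left, with a median of -0.60.

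Between the genotypes 0 genes of these 5 lists passed edgeR's threshold in GFP-positive cells, against 0.0343% of all genes tested, and DESeq2 and limma called 0 as well. At an unadjusted p under 0.05, as 2.14% of all genes tested, stood 1 of them, Shc3, the gene of a neuronal adaptor, whose level was 4.32 ± 0.781 CPM in controls and 5.62 ± 0.757 CPM in knockouts (SD, n = 5 each). Its log2 fold change was 0.38 (edgeR adjusted p = 0.9999). List medians were 0.027 for the 4 other family ligands and receptors tested, 0.016 for 22 adaptors, 0.036 for 10 feedback genes, 0.087 for 11 pool genes and 0.026 for 13 ETS genes, beside -0.0016 for all genes. Given as log2 fold changes, the 2 genes with the smallest p within each list were Gas1 (0.21) and Sdc3 (0.043) of the family, Shc3 and Gab1 (0.13) of the adaptors, Spry2 (0.093) and Egr1 (-0.43) of the feedback genes, Cdh20 (0.16) and Nkx6-1 (0.11) of the pool genes, and Erf (0.21) and Elk4 (0.13) of the ETS genes. None of them passed.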

How the data were processed

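The authors deposited estimated counts by gene symbol, without scaling between libraries, and TPM values whose column totals lie between 974800 and 1018240, so a further scaling that the labels do not state was applied to the TPM. The submitters' processing notes name kallisto and the mm10 genome. Of the estimated counts 39.2% were whole numbers. They were rounded, filterByExpr removed low genes, TMM scaled the libraries, and edgeR 4.0.16 ran its robust quasi-likelihood F-test (R 4.3.3). P-values were adjusted by Benjamini-Hochberg across every gene tested, with 0.05 as the threshold. Knockout was compared with control in 10 libraries, and the sorts in all 12 with genotype as a covariate. DESeq2 1.42.0 and limma 3.58.1 served as alternatives. The fitting code was tested on simulated data. CPM levels use TMM-scaled totals, and log2 CPM a prior count of 2. Columns were matched to samples by title, with 0 left over. No replicate pair was a duplicate (chi-square per degree of freedom of at least 7.92).

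Libraries with the same replicate number deviated together (r = 0.381, 0.251, 0.179, 0.277 and 0.309, other pairs at most 0.103). The main fits did not include the number, and fits with it as a block were run beside them. Blocked values are given where they change a call and for the knockout intervals. The sources used here do not say what the number stands for, nor how transcripts were summed to symbols.

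Members and gene lists were chosen with earlier results of these data known. Named genes are the 8 members, from each list up to 3 called genes per direction with the smallest p between the sorts and the 2 with the smallest p between the genotypes, 2 genes per member by likeness of profile (average log2 CPM of at least 1), and Arhgap35 and Grlf1. Gene models are those of GENCODE M21 on GRCm38. The values of 1 motor neuron marker are not reported here.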

Additional observations from a re-analysis of the deposited data

Results flagged for a closer look

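In groups of 5, a library was marked where its gap to the nearest other exceeded 0.71 of the group's range, which chance gives in about 1 of 20 groups. Of 52 groups (26 genes), 3 held such a library. Gfra1 in control replicate 1 stood at 177 CPM, below the other controls at 194 to 198 CPM. Foxj3 was low in the same library at 67.9 CPM, against 70.9 to 71.8 CPM. It was chosen for a profile like that of Gfra1 over the same libraries, so this flag is no separate observation. Grlf1 was listed at 0 CPM in knockout replicate 1, with 7.14 to 8.32 CPM in the other knockout libraries.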

How the results depend on the processing

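Ret, Gfra2, Gfra3, Etv4 and Etv5 kept their direction and call between the sorts under all 25 alternatives run. With the replicate block 5 of the 8 genes were called, and 6 to 8 when 1 library was left out (without knockout GFP-positive replicate 3, Gdnf fell below the filter and was not tested). On log2(TPM + 1) the differences were 2.93 for Gfra3, 5.49 for Etv4 and -1.73 for Etv5, and the block gave 5.67 for Etv4. Between the genotypes and in the interaction, 0 of the 8 genes were called under any alternative. Leaving out 1 library moved the knockout log2 fold change between -0.028 and 0.078 for Ret, -0.028 and 0.037 for Gfra1, -0.044 and 0.073 for Gfra2, -0.16 and 0.011 for Gfra3, -0.14 and 0.021 for Etv1, 0.0065 and 0.29 for Etv4, and -0.063 and 0.40 for Etv5, so that all but Etv4 changed sign without a call. The replicate block moved none of these calls.

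Over all genes the knockout comparison called 6, against 11 with DESeq2, 0 with limma on log2(TPM + 0.1) or on unfiltered log2(TPM + 1), and 0 to 8 with 1 library left out: 8 without control replicate 5, 6 without control replicate 1 and at most 2 without any other. The interaction called 5, against 2 with DESeq2, 0 with limma on log2(TPM + 1), 245 without its filter, 1 with the replicate block, and 0 to 6 with 1 library left out (0 without control replicate 5). The causes were not tested. In the interaction, limma on log2(TPM + 1), filtered or not, turned Ret to -0.067, Etv4 to -0.26 and Etv5 to 0.077, and a pseudocount of 0.1 gave -0.073, -0.33 and 0.039, while Etv5 was 0.045 with the block. Left-out libraries gave -0.038 to 0.068 for Ret and -0.17 to 0.29 for Etv5, without a call. Gdnf had no value where a filter removed it, and the interaction could not be fitted without a GFP-negative library. Counts of 2 to 11 limit what can be said of Gdnf.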
